A study of Homo sapiens with 12 samples.

Results

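Host genes of small RNAs are transcripts whose introns or exons carry small nucleolar RNAs (snoRNAs) or microRNAs (miRNAs). They were taken here as every feature named SNHG with a number, every feature whose name is MIR, then letters or digits only, then HG, and GAS5. Names with a hyphen, such as MIR4435-2HG and MIR9-3HG, fall outside the rule and are counted with other hosts at the end. The rule found 90 such genes among the 59490 uniquely named features, 29 of them snoRNA hosts and 61 miRNA hosts. Of these, 49 reached 1 TPM (a length-scaled abundance that sums to 1000000 in each library) in at least 1 library and are described, 27 snoRNA hosts and 22 miRNA hosts. The remaining 41 stayed below 1 TPM in every library, and 22 of them were listed at 0 in all 12. MIR29B2CHG and MIR4432HG, with highest values of 1.03 and 1.04 TPM, lay just inside that limit, and MIRLET7A1HG, with 0.99 TPM, just outside it.

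The libraries were made from polyadenylated RNA of OCI-LY1, a human diffuse large B-cell lymphoma (DLBCL) line. Venetoclax-sensitive parental cells and OCI-LY1R cells, which had acquired resistance under rising venetoclax doses, each received either DMSO vehicle or 1 µM decitabine for 3 days. There were 3 libraries in each of these 4 groups. Venetoclax blocks the survival protein BCL2, and decitabine is a deoxycytidine analogue that traps DNA methyltransferases so that methylation is lost as cells divide. The labels name no genetic change made to either line, and they do not say whether OCI-LY1R is a pool or 1 clone, nor whether replicates were separate cultures, so each p-value below reflects library-to-library spread that may be technical. Parental libraries are numbered as labelled, and the resistant ones, which could be matched to a group only, are lettered a, b and c.

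snoRNAs guide the chemical modification of ribosomal RNA, and in humans most are cut out of the introns of host transcripts. The spliced remainder of many SNHG transcripts carries no long reading frame and is degraded by nonsense-mediated decay while it is being translated. Many snoRNA hosts start with the pyrimidine-rich motif of ribosomal protein genes and are highly transcribed in growing cells. A miRNA host is the long primary transcript from which Drosha and DGCR8 cut a hairpin and Dicer then makes the mature miRNA, so the host's level is not the level of the miRNA.

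Replicate 3 of the parental decitabine group is given apart throughout, because it differed from the other 11 libraries over the whole transcriptome. In it 13701 features reached 1 TPM, against 7137 to 9117 in the others. The 6 B-cell markers MS4A1, CD79A, CD79B, PAX5, BCL6 and CD22 summed to 3091.04 TPM there and to between 32.74 and 74.84 TPM in the other 11, and MS4A1, which encodes CD20, reached at most 3.15 TPM in those 11. All 6 were at 1 TPM or more in replicate 3, and 5 of 6 had a median of at least 1 TPM over the 11. Markers of other cell types had smaller sums. The 3 T-cell markers summed to 0.22 TPM in replicate 3 and at most 1.09 TPM elsewhere, with CD3D and CD3E at 0 in the 11. The 3 myeloid markers summed to 0.34 and at most 1.39 TPM, with CD14 at 0 in the 11 and LYZ at 1.31 TPM in resistant decitabine a. The 3 epithelial markers summed to 34.81 and at most 22.39 TPM, with KRT18 at 0 in the 11. The other epithelial markers were not absent. EPCAM was at 33.37 TPM in replicate 3, and KRT8 was at 22.39, 14.55 and 1.77 TPM in resistant decitabine a, b and c. The 2 fibroblast markers, COL1A1 and COL1A2, summed to 2.39 TPM in replicate 3 and 0 in the 11. The libraries are stranded per the labels' protocols, but the sources used here do not give the strand setting of the counting. Its part in the levels below was not tested. All libraries are bulk RNA of OCI-LY1 or its resistant derivative. In such RNA, fewer cells of the line expressing a marker and less RNA per cell cannot be told apart.

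Mature miRNAs of the 6 miRNA hosts with a median of at least 5 TPM over the libraries other than parental decitabine replicate 3 are shown because the seed, bases 2 to 8 from the 5′ end, decides which messages a miRNA can pair with. Sequences are from RefSeq (GRCh38.p14), written 5′ to 3′ with the seed in capitals. MIR302CHG (chr4:112646476-112650051, minus strand) is the host of the miR-302 and miR-367 cluster of pluripotent stem cells. Its 4 miR-302 3p miRNAs share 1 seed and differ towards the 3′ end, while miR-367-3p has another:
miR-302a-3p: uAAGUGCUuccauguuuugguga
miR-302b-3p: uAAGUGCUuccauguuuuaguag
miR-302c-3p: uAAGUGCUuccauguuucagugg
miR-302d-3p: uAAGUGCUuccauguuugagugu
miR-367-3p: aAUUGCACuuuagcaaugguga

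MIR497HG (chr17:7015818-7019659, minus strand) carries miR-195 and miR-497, whose 5p arms share the seed of the miR-15/16 family. MIR34AHG (chr1:9148011-9198906, minus strand) is the p53-responsive host of miR-34a. MIR762HG (chr16:30875222-30895220, plus strand) carries miR-762, and MIR3681HG and MIR3936HG carry the miRNAs of their names. Positions are from GENCODE 29 (GRCh38), which classes MIR34AHG as a long intergenic RNA and MIR302CHG, MIR497HG and MIR762HG as antisense RNAs. Apart from miR-195 and miR-497, the miRNAs listed here have different seeds:
miR-195-5p: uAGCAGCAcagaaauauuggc
miR-497-5p: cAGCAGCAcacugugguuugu
miR-34a-5p: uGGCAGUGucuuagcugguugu
miR-762: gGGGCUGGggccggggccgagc
miR-3681-5p: uAGUGGAUgaugcacucugugc
miR-3936: uAAGGGGUguauggcagaugca

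MIR17HG, the host of the growth-promoting miR-17-92 cluster, and MIR155HG, the host of miR-155 in activated B cells, are the hosts best known from B-cell lymphoma. Their leading miRNAs are shown beside the ones above because miR-17-5p and miR-20a-5p share a seed 1 base out of register with that of miR-302, and miR-92a-3p has the seed of miR-367-3p:
miR-17-5p: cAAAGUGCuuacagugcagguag
miR-20a-5p: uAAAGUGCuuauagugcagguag
miR-92a-3p: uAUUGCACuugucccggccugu
miR-155-5p: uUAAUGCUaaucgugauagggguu

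Neither of these hosts was high in any library. MIR17HG was at 4.81 TPM in parental decitabine replicate 3 and at most 0.34 TPM in the other 11 libraries. MIR155HG was listed at 0 in replicate 3 and reached at most 1.32 TPM in the 11.

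Across the 11 libraries other than replicate 3, only 11 of the 90 hosts had a median of at least 5 TPM. They were 6 miRNA hosts (MIR302CHG, MIR497HG, MIR3681HG, MIR762HG, MIR3936HG and MIR34AHG) and 5 snoRNA hosts (SNHG14, SNHG29, GAS5, SNHG7 and SNHG10). In replicate 3 itself the 5 highest hosts were SNHG29, GAS5, SNHG6, SNHG1 and SNHG7, all of them snoRNA hosts.

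**Figure D1:**
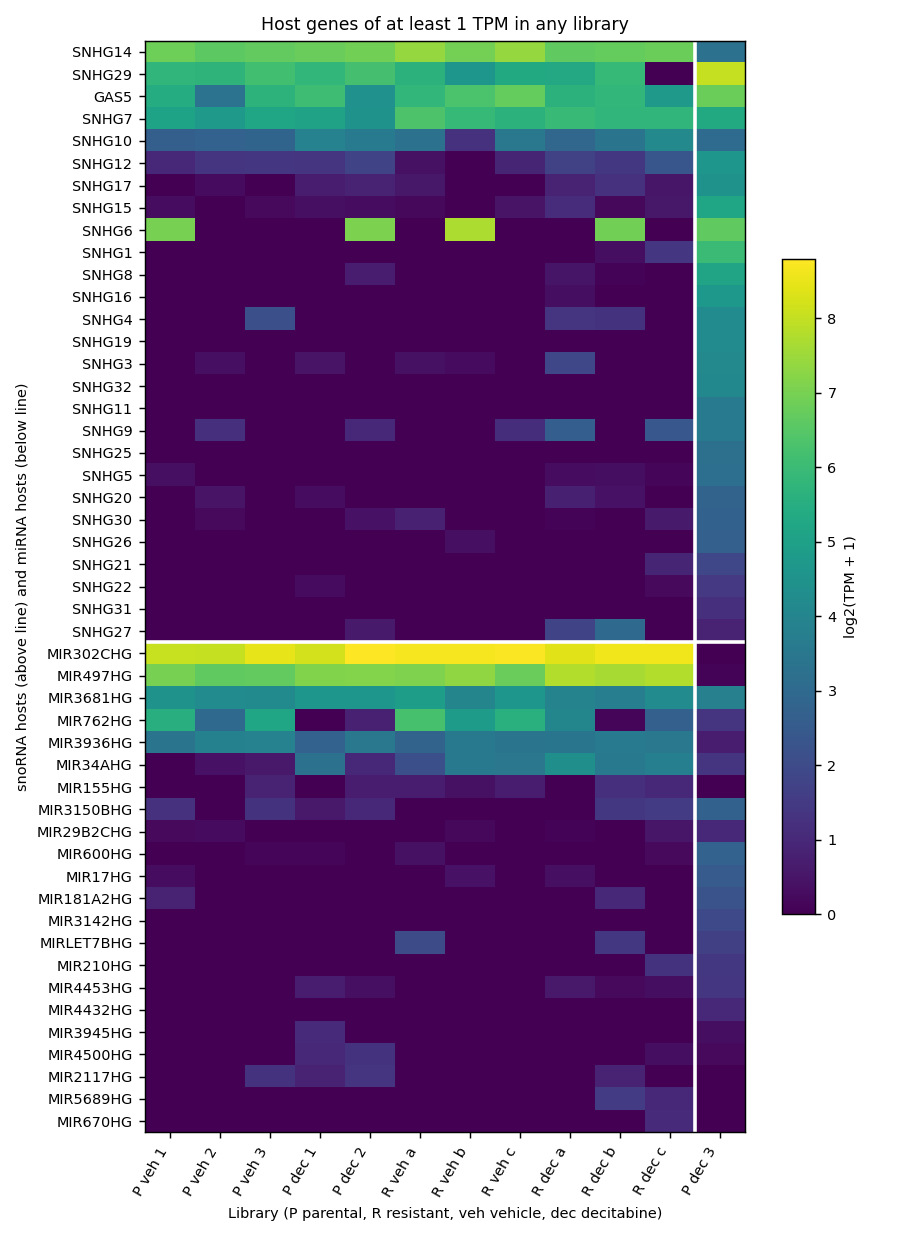
Levels of the 49 described host genes in each library, as log2(TPM + 1) on a colour scale, with snoRNA hosts above the horizontal line, miRNA hosts below it and parental decitabine replicate 3 right of the vertical line. Most snoRNA host rows are dark in the 11 libraries and bright in replicate 3, while the MIR302CHG and MIR497HG rows are bright in the 11 and dark in replicate 3.

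Replicate 3 held most of the snoRNA host family. In it 26 of 29 snoRNA hosts reached 1 TPM, against 5 to 8 in the parental and resistant vehicle libraries and the other 2 parental decitabine libraries, and 11, 10 and 7 in the resistant decitabine libraries. Of the described snoRNA hosts, 13 of 27 (48.15%) reached 1 TPM in replicate 3 and in no other library. The same held for 7 of 22 described miRNA hosts (31.82%) and for 29.46% of all 21096 features that reached 1 TPM anywhere. Conversely, 1 described snoRNA host (3.704%), SNHG27, and 9 described miRNA hosts (40.91%) reached 1 TPM in other libraries but not in replicate 3, beside 35.4% of all such features. The miRNA hosts thus lay near the share of all features in both counts, and the snoRNA hosts above it in the first and below it in the second. These are counts from 1 library against 11, with no test.

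The summed level of the snoRNA hosts was 862.34 TPM in replicate 3. It was 376.52, 189.66 and 269.35 TPM in the 3 parental vehicle libraries, 280.78 and 385.3 TPM in parental decitabine 1 and 2, 363.04, 495.82 and 375.08 TPM in the resistant vehicle libraries and 272.19, 416.68 and 220.76 TPM in the resistant decitabine libraries. Replicate 3 lay above all the others, and the remaining groups overlapped. The summed level of the miRNA hosts went the other way, with 52.38 TPM in replicate 3 and 398.17 to 666.05 TPM in the 11.

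**Figure D2:**
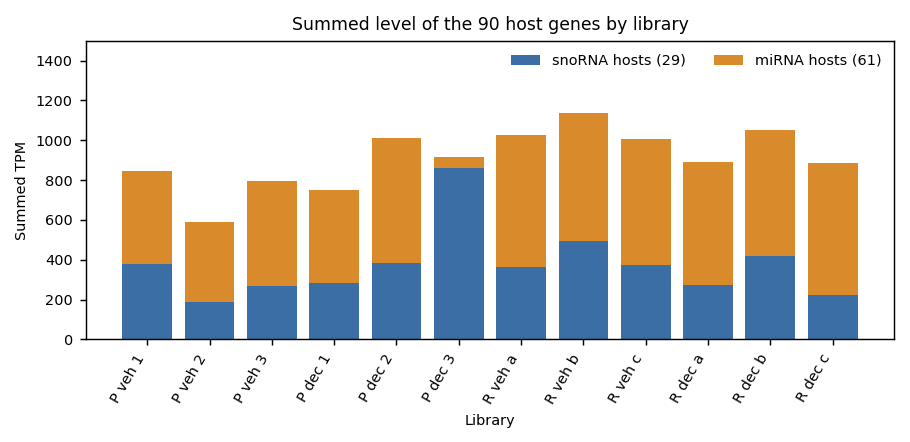
Summed TPM of the 29 snoRNA hosts (blue) and 61 miRNA hosts (orange), stacked, in each of the 12 libraries. Parental decitabine replicate 3 has a snoRNA host sum of 862.34 TPM and a miRNA host sum of 52.38 TPM, while in the other 11 libraries the miRNA hosts make up the larger part.

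SNHG1, the host of SNORD22 and of the SNORD25 to SNORD31 series, was nearly confined to replicate 3 among these 12 libraries. It was at 62.09 TPM in replicate 3, listed at 0 in 9 of the 11 others, and at 0.26 and 1.62 TPM in resistant decitabine b and c. Its span (chr11:62851988-62855914, minus strand) holds 9 snoRNA genes of RefSeq. SNHG15, SNHG8, SNHG16 and SNHG17 followed the same pattern, at 34.98, 34.44, 24.89 and 21.84 TPM in replicate 3 and at most 1.18, 0.62, 0.26 and 1.37 TPM in the 11. SNHG11, SNHG19, SNHG25, SNHG31 and SNHG32 were listed at 0 in all 11 and at 11.78, 17.79, 8.44, 1.33 and 16.12 TPM in replicate 3. Counted over the whole family, 22 snoRNA hosts and 18 miRNA hosts lay above every one of the 11 libraries in replicate 3. Some of these miRNA hosts stayed under 1 TPM there, such as MIR223HG at 0.08 TPM. In contrast, 1 snoRNA host (SNHG14) and 3 miRNA hosts (MIR302CHG, MIR497HG and MIR3936HG) lay below every one. Replicate 3 had 23241 features above 0, against 9695 to 13130 in the 11. No share of all features is given beside these counts, so they are not read as a trait of the hosts.

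The promoter of SNHG1 is shown as an example of the family's start regions (RefSeq, GRCh38.p14, chr11:62855836-62856135, minus strand). The window runs from 250 bases before to 50 after the annotated start, and capitals mark its 30 CpG dinucleotides, the sites at which DNA methyltransferases act:
SNHG1 promoter: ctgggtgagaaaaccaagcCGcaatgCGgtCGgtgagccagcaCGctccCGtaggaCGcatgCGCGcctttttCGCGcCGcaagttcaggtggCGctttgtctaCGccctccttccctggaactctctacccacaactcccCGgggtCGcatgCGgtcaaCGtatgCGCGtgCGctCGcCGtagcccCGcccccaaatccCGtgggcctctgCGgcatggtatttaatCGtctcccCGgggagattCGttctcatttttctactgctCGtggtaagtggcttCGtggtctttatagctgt

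RefSeq gave such a window for 23 described snoRNA hosts and 17 described miRNA hosts. The snoRNA hosts had a median of 23 CpG, with a range of 5 (GAS5) to 43 (SNHG7), and the miRNA hosts a median of 11 with a range of 1 to 44, beside a median of 14 over all 35116 promoters of the table. The letters CTTTC, part of many pyrimidine-rich starts, were searched on both strands and occurred anywhere in the window of 43.48% of the snoRNA hosts, 64.71% of the miRNA hosts and 54.69% of all promoters. The palindrome CACGTG, which MYC and related factors bind, does not overlap CTTTC and was in 2 of 23 snoRNA host windows (SNHG7 and SNHG30), in 0 of 17 miRNA host windows and in 7.256% of all promoters. A match or its absence in these windows is a description of the letters only.

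GAS5, a host that accumulates in growth-arrested cells and whose span (chr1:173863900-173868882, minus strand) holds 11 snoRNA genes of RefSeq, was at 42.48, 9.13 and 50.75 TPM in the parental vehicle libraries. It was at 65.29 and 20.72 TPM in parental decitabine 1 and 2 and 111.17 TPM in replicate 3. In resistant cells it was at 55.03, 77.57 and 103.79 TPM under vehicle and 49.24, 55.18 and 25.48 TPM under decitabine. The 3 resistant vehicle libraries lay above the 3 parental ones, and the drug groups overlapped their vehicles in both lines.

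SNHG29 (chr17:16438822-16478678, plus strand) was the highest host of replicate 3, at 261.78 TPM. It was at 53.74, 51.18 and 69.93 TPM in parental vehicle, 56.07 and 72.22 TPM in parental decitabine 1 and 2, 48.89, 23.75 and 39.37 TPM in resistant vehicle, and 38.49, 58.53 and 0 TPM in resistant decitabine. The 0 was in resistant decitabine c, while the other 10 of the 11 libraries were at 23.75 TPM or more. SNHG6 was listed at 0 in 7 of the 11 libraries and stood at 126.15, 132.41, 210.48 and 121.46 TPM in parental vehicle 1, parental decitabine 2, resistant vehicle b and resistant decitabine b, beside 99.84 TPM in replicate 3. A zero beside such values, in libraries of 1 group, cannot be read as absence of the transcript, and no difference of SNHG6 between groups exceeded that spread.

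SNHG7 (chr9:136721366-136728184, minus strand) was at 33.32, 26.17 and 35.22 TPM in parental vehicle, 32.25 and 21.70 TPM in parental decitabine 1 and 2, and 39.65 TPM in replicate 3. Resistant vehicle libraries had 80.75, 58.30 and 49.60 TPM and resistant decitabine libraries 61.92, 54.70 and 54.11 TPM. The 3 resistant vehicle libraries lay above the 3 parental vehicle libraries, as was found for 17.8% of all features tested. SNHG10 (chr14:95532297-95534872, minus strand), the host of a small Cajal body RNA, was at 5.34, 5.75 and 6.05 TPM in parental vehicle and at 13.87, 11.12 and, in replicate 3, 7.49 TPM in parental decitabine. In resistant cells it overlapped, at 8.62, 1.38 and 10.46 TPM under vehicle and 6.47, 9.35 and 16.43 TPM under decitabine.

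SNHG14 (chr15:24978583-25419462, plus strand) is the long imprinted transcript of the Prader-Willi region, which carries the SNORD115 and SNORD116 arrays, and its span holds 84 snoRNA genes of RefSeq. It was at 114.00, 93.48 and 102.19 TPM in parental vehicle, 110.08 and 121.00 TPM in parental decitabine 1 and 2 and 8.70 TPM in replicate 3. It was at 167.75, 123.85 and 169.40 TPM in resistant vehicle and 98.28, 104.84 and 112.19 TPM in resistant decitabine. Resistant vehicle libraries lay above parental vehicle and above resistant decitabine, without overlap.

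MIR302CHG had the highest median of the 90 hosts over the 11 libraries. It was at 262.91, 260.50 and 349.82 TPM in parental vehicle, 288.95 and 443.10 TPM in parental decitabine 1 and 2, 412.43, 412.13 and 431.74 TPM in resistant vehicle, and 336.97, 388.00 and 388.33 TPM in resistant decitabine, and it was listed at 0 in replicate 3. MIR497HG was at 125.48, 98.12 and 102.74 TPM in parental vehicle, 137.39 and 142.87 TPM in parental decitabine 1 and 2, 136.94, 161.82 and 110.34 TPM in resistant vehicle, and 220.70, 199.31 and 219.92 TPM in resistant decitabine. It was at 0.06 TPM in replicate 3. In both lines the decitabine libraries of MIR497HG other than replicate 3 lay above their vehicle libraries.

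MIR34AHG was nearly silent in parental vehicle cells, at 0, 0.34 and 0.52 TPM. It was at 8.78 and 0.96 TPM in parental decitabine 1 and 2, both above all 3 vehicle libraries but far from each other. Such a separation was found for 27.9% of all features tested. Replicate 3 was at 1.56 TPM and, as a library set apart, adds no support. In resistant cells it was at 3.44, 10.84 and 10.25 TPM under vehicle and 19.81, 10.86 and 13.05 TPM under decitabine, all above the parental vehicle level. The lowest decitabine value of resistant cells, 10.86 TPM, and their highest vehicle value, 10.84 TPM, were nearly equal.

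The MIR34AHG promoter in RefSeq (GRCh38.p14, chr1:9182289-9182588, minus strand) is shown as a CpG-dense start among the miRNA hosts. Methylation was not measured in these libraries. The window of MIR762HG, whose levels were lower under decitabine, is also dense and holds 36 CpG, more than 87.32% of promoters. Capitals mark the CpG. The MIR34AHG window holds 38 CpG, more than 90.09% of all promoters:
MIR34AHG promoter: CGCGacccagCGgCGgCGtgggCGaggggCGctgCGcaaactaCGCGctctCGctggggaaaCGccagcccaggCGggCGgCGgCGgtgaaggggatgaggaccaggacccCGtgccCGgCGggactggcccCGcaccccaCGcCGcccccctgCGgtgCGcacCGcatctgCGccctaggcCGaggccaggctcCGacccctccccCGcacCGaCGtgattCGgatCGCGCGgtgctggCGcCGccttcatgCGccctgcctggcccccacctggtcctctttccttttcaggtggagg

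MIR762HG had its higher values under vehicle. It was at 45.22, 7.04 and 36.15 TPM in parental vehicle and at 0, 0.75 and, in replicate 3, 1.48 TPM in parental decitabine. In resistant cells it was at 73.63, 27.55 and 47.36 TPM under vehicle and 15.31, 0.10 and 5.55 TPM under decitabine. In both lines every decitabine library other than replicate 3 lay below every vehicle library of that line. The hairpin MIR762, which lies inside the host and is counted as its own feature, was at 80.63, 117.24 and 125.22 TPM in parental vehicle and 293.02 and 149.64 TPM in parental decitabine 1 and 2, with 0.02 TPM in replicate 3. In resistant cells MIR762 was at 305.36, 270.82 and 183.73 TPM under vehicle and 183.07, 141.15 and 423.51 TPM under decitabine.

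The last 2 hosts with a median above 5 TPM were MIR3681HG and MIR3936HG. MIR3681HG (chr2:11848622-12578348, plus strand) was at 22.01, 17.96 and 16.90 TPM in parental vehicle, 23.82, 23.81 and, in replicate 3, 13.38 TPM in parental decitabine, 29.41, 14.87 and 23.77 TPM in resistant vehicle, and 14.14, 12.42 and 17.82 TPM in resistant decitabine. MIR3936HG (chr5:132311285-132369916, minus strand) was at 9.36, 13.64 and 14.00 TPM in parental vehicle, 5.76, 10.57 and, in replicate 3, 0.61 TPM in parental decitabine, 5.91, 10.77 and 9.51 TPM in resistant vehicle, and 9.58, 11.25 and 10.61 TPM in resistant decitabine. Without replicate 3, decitabine and vehicle libraries of MIR3936HG overlapped in both lines. Those of MIR3681HG overlapped in resistant cells and not in parental cells.

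**Figure D3:**
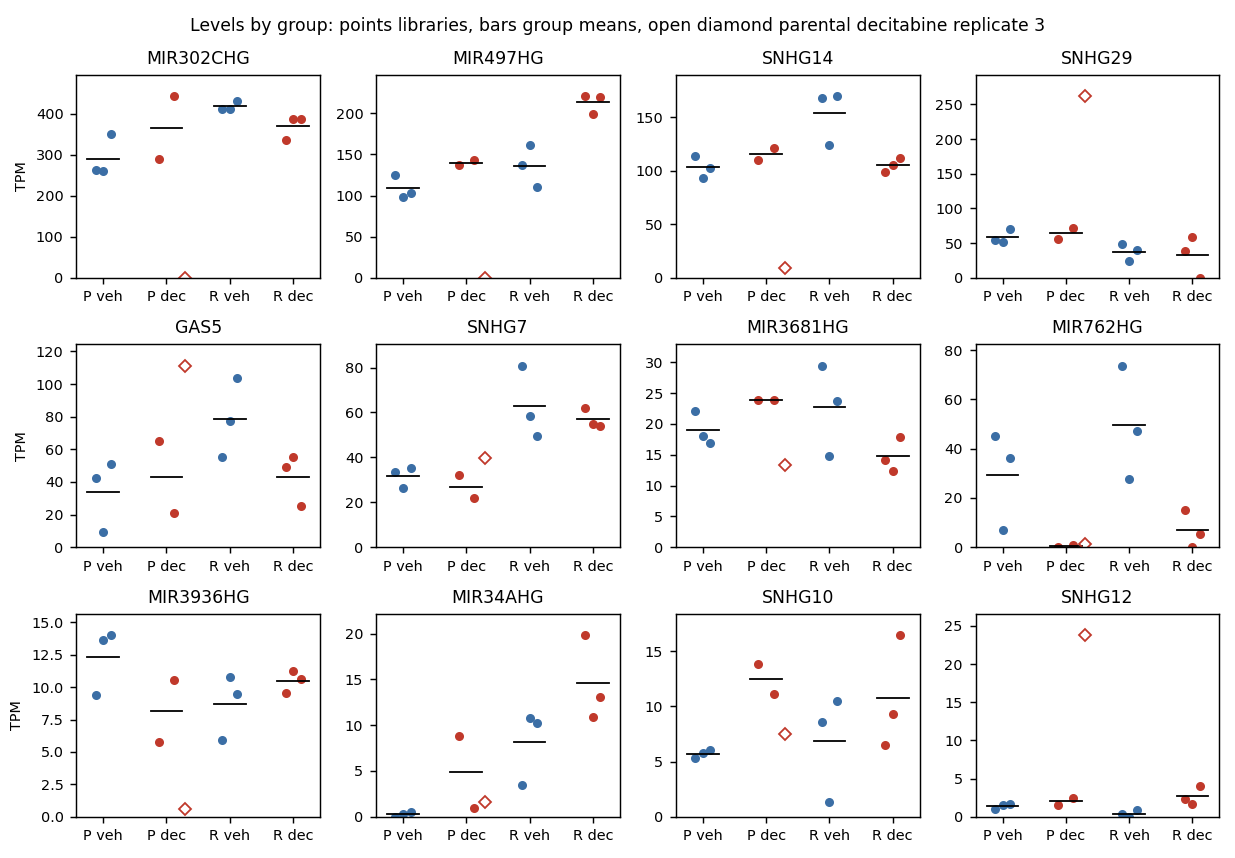
TPM of the 11 hosts with a median of at least 5 TPM over the 11 libraries, and of SNHG12, in the 4 groups. Points are libraries (blue vehicle, red decitabine), bars are group means without parental decitabine replicate 3, and that replicate is the open diamond. MIR762HG lies lower under decitabine in both lines, MIR497HG lies higher, and the diamond stands far from the rest for MIR302CHG, MIR497HG, SNHG14 and SNHG29.

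Among the remaining described hosts, SNHG12 was at 1.00, 1.59 and 1.61 TPM in parental vehicle, 1.52 and 2.51 TPM in parental decitabine 1 and 2 and 23.75 TPM in replicate 3. In resistant cells it was at 0.32, 0 and 0.88 TPM under vehicle and 2.27, 1.71 and 4.05 TPM under decitabine. Under decitabine in resistant cells, SNHG27 was at 2.51 and 7.04 TPM in libraries a and b and SNHG9 at 5.14 and 4.26 TPM in a and c, with 0 in the remaining library of each.

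The small RNAs inside these hosts mostly stayed under 1 TPM as features of their own. Of 121 snoRNA features with a row that lie inside described hosts, 92 were listed at 0 in all 12 libraries, 7 reached 1 TPM in any of the 11 and 6 reached it in replicate 3. SNORD104, inside SNHG25, was the highest of these in replicate 3, at 19.21 TPM. Most of the 121, and most of those at 0 in all 12, lie inside SNHG14, so these counts mainly describe that locus. Of 38 miRNA features, 19 were at 0 in all 12, 11 reached 1 TPM in any of the 11 and 0 reached it in replicate 3. Within the MIR302CHG span, the hairpin feature MIR367 reached 9.74 TPM and MIR302D 6.59 TPM, both in resistant decitabine a, while MIR195 and MIR497 were at 0 in every library. Libraries of polyadenylated RNA are not made to hold mature small RNAs, so these values do not measure them.

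Several hosts share exon sequence with a gene on the opposite strand, and at some of these loci the strand with the higher level differed between replicate 3 and the 11 libraries. At the MIR302CHG locus, LARP7, which encodes a protein that binds the 7SK RNA, lies opposite 40.6% of the host's exon length. LARP7 was at 61.66 TPM in replicate 3, where the host was at 0, and was listed at 0 in 7 of the 11 libraries and at 45.44 to 53.73 TPM in the other 4. At the MIR497HG locus, C17orf49 covers 38.2% of the host's exons on the other strand. It was at 15.77 TPM in replicate 3 and at 0 in 10 of the 11 libraries, and the readthrough feature RNASEK-C17orf49 was at 83.22 TPM in replicate 3 and at most 17.23 TPM elsewhere.

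The loci of SNHG29, SNHG16 and SNHG21 showed the reverse. LRRC75A, which lies opposite 12% of the exons of SNHG29, was at 0.64 TPM in replicate 3 and 346.44 to 640.54 TPM in the 11, while SNHG29 itself was at its highest in replicate 3. A clone-named feature opposite 30.6% of the exons of SNHG16 was at 0 in replicate 3 and 44.25 to 90.44 TPM in the 11, and SNHG16 was at most 0.26 TPM in those 11. FSD2, opposite 34.1% of SNHG21, was at 0.06 TPM in replicate 3 and 1.32 to 3.97 TPM in the 11. SNHG21 was at 2.70 TPM in replicate 3 and at most 0.88 TPM in the 11. At the loci of SNHG6, SNHG7 and SNHG10 only the opposite feature lay outside the 11. MCMDC2, opposite 29.3% of SNHG6, was at 0.10 TPM in replicate 3 and 6.01 to 11.24 TPM in the 11. DIPK1B, opposite 25.2% of SNHG7, was at 5.98 TPM in replicate 3 and 20.07 to 35.34 TPM in the 11. GLRX5, opposite 20.1% of SNHG10, was at 62.79 TPM in replicate 3 and 5.46 to 11.25 TPM in the 11. In replicate 3 SNHG6, SNHG7 and SNHG10 were at 99.84, 39.65 and 7.49 TPM. Their ranges over the 11 were 0 to 210.48, 21.70 to 80.75 and 1.38 to 16.43 TPM.

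For 2 well known antisense pairs with small overlaps, host and opposite feature also went opposite ways in replicate 3. GAS5-AS1, opposite 1.2% of the exons of GAS5, was at 2.49 TPM in replicate 3 and 9.40 to 20.64 TPM in the 11. UBE3A, the ubiquitin ligase gene whose paternal copy is silenced in neurons by the distal part of SNHG14, overlaps 0.5% of the exons of SNHG14. It was at 24.24 TPM in replicate 3 and 2.06 to 12.37 TPM in the 11. At MIR762HG, the chromatin-remodelling subunit gene BCL7C, opposite 27.5% of its exons, was at 39.27 TPM in replicate 3 and 123.45 to 234.02 TPM in the 11.

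Of the 20 described hosts with an exon opposite another feature, 5 (GAS5, MIR3150BHG, SNHG16, SNHG21 and SNHG29) lay above all 11 libraries in replicate 3 while the opposite feature lay below them all. In 4 (MIR302CHG, MIR3936HG, MIR497HG and SNHG14) it was the host that lay below and the opposite feature above. For MIR3936HG that feature, SLC22A4, was at only 0.15 TPM, and GAS5 was at 111.17 TPM against at most 103.79 TPM in the 11. Both strands lay above the 11 for 2 hosts, and neither pattern held for the other 9. No share over all features with an exon opposite another is given, so these counts are not read as a trait of host loci. Reads from the 2 strands of such a locus cannot be assigned with certainty from these tables, so the levels of the hosts named here carry that limit in every comparison below.

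**Figure D4:**
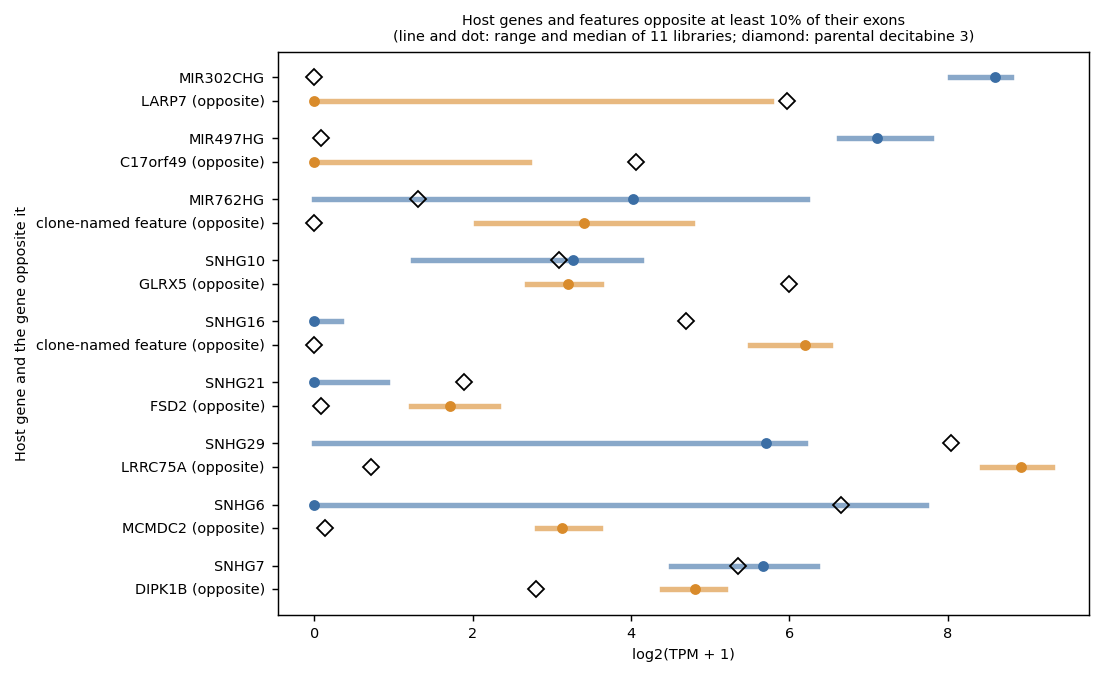
Levels of 9 host genes (blue) and the feature with the longest exon overlap on the opposite strand (orange), as log2(TPM + 1), for overlaps of at least 10% of the host's exon length and a level of at least 1 TPM. Lines span the 11 libraries, dots are their medians, and diamonds are parental decitabine replicate 3. At MIR302CHG and MIR497HG the diamond of the host is at or near 0 and that of the opposite gene is above its line, and at SNHG16, SNHG21 and SNHG29 the reverse is seen.

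Differences between groups were tested with limma on log2(TPM + 1) over every feature whose mean over the libraries compared was 1 TPM or more. The threshold was a Benjamini-Hochberg adjusted p of 0.05. Replicate 3 was left out of the fits that involve parental decitabine, which leaves 2 libraries in that group. No host gene passed the threshold in any of the 4 comparisons.

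Decitabine in parental cells was tested for 13 hosts. With limma 0 passed, beside 1.86% of all 8122 features tested. An unadjusted p under 0.05 was found for 2 of the 13 and for 18% of all features. MIR762HG had the largest difference, a log2 fold change of -4.18 ± 0.89 (SE) with a limma adjusted p of 0.1113, lower in 2 of 2 decitabine libraries. Replicate 3 was low too, at 1.48 TPM, but it was also low for BCL7C and MIR762 at this locus and adds no support. MIR762HG passed the filter on low values only through vehicle, where it is high, and MIR34AHG only through decitabine. SNHG10 had a log2 fold change of 1.00 ± 0.22 (limma adjusted p = 0.1191). The groups did not overlap for 4 higher hosts (MIR34AHG, MIR3681HG, MIR497HG and SNHG10) and 1 lower host (MIR762HG), beside 27.9% of all features higher and 11.6% lower. MIR34AHG had a log2 fold change of 1.79 ± 0.78 (limma adjusted p = 0.3239) and MIR497HG 0.37 ± 0.14 (limma adjusted p = 0.2867), which became -1.98 when replicate 3 was included. MIR3681HG differed by 0.32 ± 0.18 (limma adjusted p = 0.4126). GAS5 differed by 0.42 ± 0.92 (limma adjusted p = 0.836), and its sign turned when parental vehicle 2 (-0.32) or parental decitabine 1 (-0.38) was left out. The median log2 fold change of the 13 hosts was 0.32, beside 0.21 for all features tested.

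Decitabine in resistant cells was tested for 15 hosts. With limma 0 passed, beside 3.59% of all 8579 features, and 4 of the 15 had an unadjusted p under 0.05 (MIR497HG, MIR762HG, SNHG12 and SNHG14), beside 19.8% of all features. MIR497HG was higher by 0.66 ± 0.17 on the log2 scale (limma adjusted p = 0.1053), in 3 of 3 decitabine libraries. MIR762HG had a log2 fold change of -3.26 ± 1.01 (limma adjusted p = 0.1529), with 3 of 3 decitabine libraries lower. SNHG14 had -0.53 ± 0.17 (limma adjusted p = 0.1542) and SNHG12 1.39 ± 0.43 (limma adjusted p = 0.1529). SNHG12, SNHG9 and SNHG27 reached a mean of 1 TPM through their decitabine libraries, and SNHG27 was listed at 0 in all 3 vehicle libraries, so no fold is given for it.

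Groups without overlap in resistant cells were 3 higher hosts (MIR34AHG, MIR497HG and SNHG12) and 3 lower hosts (MIR302CHG, MIR762HG and SNHG14), beside 19.8% of all features higher and 8.58% lower. MIR34AHG had a log2 fold change of 0.85 ± 0.47 (limma adjusted p = 0.3574), MIR302CHG of -0.18 ± 0.11 (limma adjusted p = 0.395) and GAS5, whose groups overlapped, of -0.88 ± 0.37 (limma adjusted p = 0.2656). The median over 14 hosts, without SNHG27, was -0.14, beside 0.21 for all features tested.

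Resistant against parental cells under vehicle was tested for 12 hosts. The 2 lines come in separate tables, and the test rests on TPM being scaled within each library. With limma 0 passed, beside 2.8% of all 7761 features, and 4 of the 12 had an unadjusted p under 0.05, beside 19.3% of all features. MIR34AHG came closest, with a log2 fold change of 2.73 ± 0.49 (unadjusted p = 0.00156, limma adjusted p = 0.05311) and 3 of 3 resistant libraries above the parental ones. It passed the filter on low values only through the resistant libraries, where it is high. Without resistant vehicle a, the lowest of its group at 3.44 TPM, its limma adjusted p was 0.02986, and over all alternatives it ranged from 0.02986 to 0.157. SNHG7 was higher by 0.95 ± 0.23 (limma adjusted p = 0.09945), MIR302CHG by 0.54 ± 0.14 (limma adjusted p = 0.1231) and SNHG14 by 0.56 ± 0.17 (limma adjusted p = 0.1514).

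GAS5, MIR302CHG, MIR34AHG, SNHG14 and SNHG7 were higher without overlap and SNHG29 lower, beside 17.8% of all features higher and 10.2% lower. GAS5 differed by 1.45 ± 0.67 (limma adjusted p = 0.302) and SNHG29 by -0.67 ± 0.30 (limma adjusted p = 0.2869). The median over the 12 hosts was 0.43, beside 0.11 for all features tested.

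Whether decitabine acted differently in the 2 lines was tested as the difference of the 2 responses for 14 hosts. With limma 0 passed, beside 0.364% of all 8505 features, and 2 of the 14 had an unadjusted p under 0.05, beside 10.1% of all features. SNHG14 had a difference of -0.70 ± 0.22 on the log2 scale (limma adjusted p = 0.3079), from a response of 0.16 in parental and -0.53 in resistant cells, and the difference was 0.5 when replicate 3 was included. MIR3681HG had a difference of -0.87 ± 0.38 (limma adjusted p = 0.4956). GAS5 had a difference of -1.30 ± 1.00 (limma adjusted p = 0.6925), and the median over the 14 hosts was -0.35, beside 0 for all features tested. The comparisons share groups, so their values are set side by side and not related to each other.

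**Figure D5:**
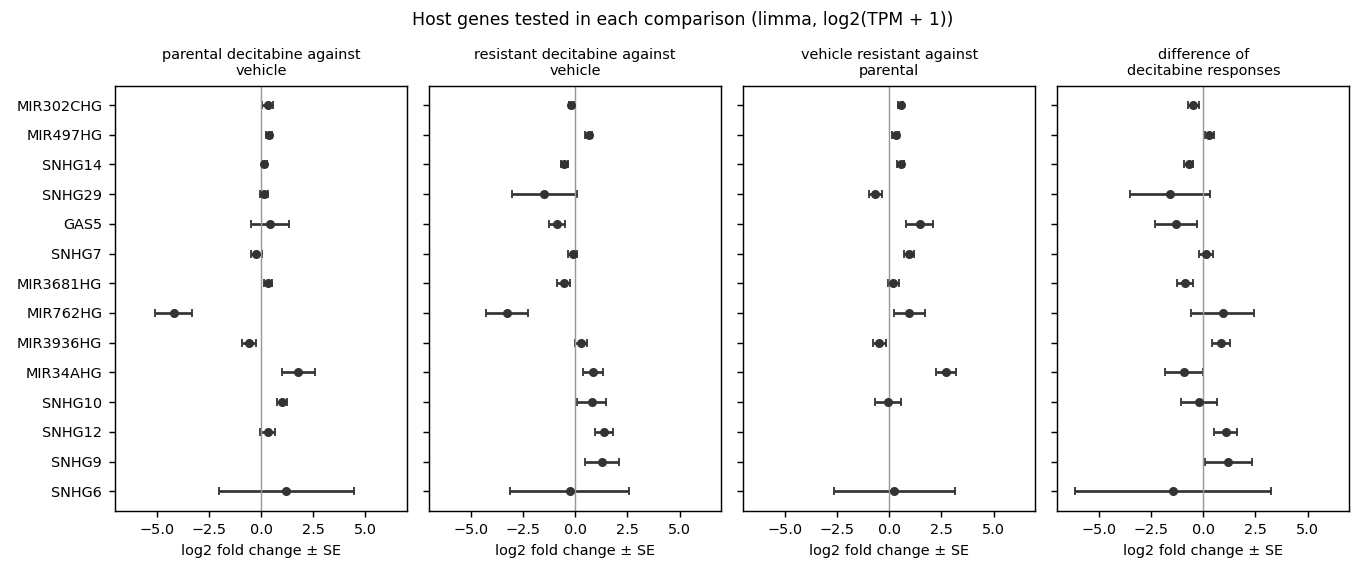
Log2 fold change and standard error from limma for each host tested in the 4 comparisons, with the difference of decitabine responses in the last panel. SNHG27 is not drawn because its vehicle libraries were all at 0. MIR762HG lies left of 0 in both decitabine panels, at -4.18 and -3.26, and MIR34AHG right of 0 in the comparison of lines at 2.73, and no host passed the adjusted threshold.

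Lists of genes around the family were also set beside replicate 3. All 10 nonsense-mediated decay factors, all 12 snoRNP core and assembly factors and all 9 miRNA processing factors reached 1 TPM in replicate 3, whereas 2, 2 and 3 of them had a median of at least 1 TPM over the 11. UPF1, the central helicase of nonsense-mediated decay, was at 66.59 TPM in replicate 3 and at most 1.08 TPM in the 11. FBL, the methyltransferase of box C/D snoRNPs, was at 322.04 TPM against at most 2.15 TPM, and DICER1 at 7.92 TPM against at most 0.29 TPM. Replicate 3 lay above every one of the 11 for 10 of 10, 9 of 12 and 9 of 9 genes of the 3 lists and below every one for 2 snoRNP genes. These 2, NHP2 (171.53 TPM against 434.88 to 693.77 TPM) and RUVBL1 (58.08 TPM against 156.95 to 309.34 TPM), were the snoRNP genes with a median of at least 1 TPM over the 11. In each of the 4 comparisons, limma called 0 of the tested members of these 3 lists, of which 2 or 3, 3 or 4, and 3 could be tested. At an unadjusted p under 0.05 there were at most 1, 0 and 0 of them in any comparison. The genes named from these lists were chosen after their values were seen. Replicate 3 also lay above every one of the 11 for 6 of 6 B-cell markers and 19 of 21 coding host genes. No share of all features is given beside these counts, so they are not read as a trait of the 3 lists.

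Other non-coding hosts with names outside the rule went both ways. Of 10, 7 reached 1 TPM in replicate 3 and 5 had a median of at least 1 TPM over the 11. Replicate 3 lay above every one of the 11 for 5 of them and below every one for 3. ZFAS1 was at 60.22 TPM in replicate 3 and at most 0.73 TPM elsewhere. The 3 below were MIR4435-2HG, at 18.95 TPM against 302.43 to 575.66 TPM, DLEU2, at 18.92 TPM against 23.30 to 79.52 TPM, and FTX, at 4.48 TPM against 15.02 to 22.77 TPM. These 4 were singled out after their values were seen. Limma called 0 of the 5 tested in each comparison, with 3, 2, 1 and 1 at an unadjusted p under 0.05 for parental decitabine, resistant decitabine, the lines and the difference of responses, beside 18%, 19.8%, 19.3% and 10.1% of all features. All 21 coding genes that host snoRNAs or miRNAs reached 1 TPM in replicate 3, and 12 had a median of at least 1 TPM over the 11. Among the 12 of these tested in resistant cells, limma called 1, beside 3.59% of all features tested there. TAF1D, a subunit of the selectivity factor of RNA polymerase I and a host of snoRNAs, rose with decitabine by 1.39 ± 0.26 on the log2 scale (limma adjusted p = 0.04965). It was at 8.74, 5.56 and 6.25 TPM under vehicle and 15.93, 22.37 and 19.92 TPM under decitabine. Its limma adjusted p ranged from 0.04775 to 0.1349 over the 11 alternatives, of which 2 kept it under 0.05. In parental cells TAF1D was not called. It was at 5.92, 4.03 and 10.1 TPM under vehicle there, 15.74 and 31.9 TPM in parental decitabine 1 and 2 and 52.15 TPM in replicate 3. No other member of that list passed in any comparison, and 5, 2, 2 and 3 of its tested members had an unadjusted p under 0.05 in the 4 comparisons in the order above, beside the same shares of all features.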

How the data were processed

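Stranded libraries of polyadenylated RNA were sequenced on the DNBSEQ platform, per the labels' protocols. HISAT2, StringTie and DESeq2 were used with hg38, per the submitters' processing notes. The sources used here give no versions, annotation release or strand setting. The 2 deposited tables, 1 per line, were read as TPM because the values of each library sum to 1000000. TPM keep no depth, so depth is unknown and no counting interval is given.

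Features were matched by name, since the identifier in the parental table belonged to the name beside it for 1 of the 90 host genes. Names that occur more than once (1166 features) were left out. Positions of 89 host genes came from GENCODE 29 by Ensembl identifier, and promoters and miRNAs from RefSeq by symbol. Hosted and opposite-strand features came from GENCODE 29 and used exon overlap.

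Groups were compared with limma 3.58.1 under R 4.3.3, with a mean-variance trend, on log2(TPM + 1) for features averaging 1 TPM or more over the libraries compared. Fold changes on that scale understate the change of low genes. The method was tested on simulated data. Values in every library are given for GAS5, hosts called in a comparison, hosts with a median of at least 5 TPM over the 11 libraries, and the 5 highest in parental decitabine replicate 3. That replicate was left out of the parental fits. Alternatives were 2 other scalings, no filter, a filter at a mean of 5 TPM, 0.1 as pseudocount, a replicate block in parental cells, inclusion of replicate 3, and leaving out each library. The host genes and lists were chosen with earlier results of these data known. A further B-cell marker of the list is not reported here.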

Additional observations from a re-analysis of the deposited data

Results flagged for a closer look

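These values stood out because they come from parental decitabine replicate 3, a library kept out of the main comparisons, and exceed every parental vehicle library. In that replicate 26 snoRNA hosts and 13 miRNA hosts reached 1 TPM. The snoRNA hosts of at least 10 TPM were SNHG29 at 261.78 TPM, GAS5 at 111.17 TPM, SNHG1 at 62.09 TPM, SNHG7 at 39.65 TPM, SNHG15 at 34.98 TPM, SNHG8 at 34.44 TPM, SNHG16 at 24.89 TPM, SNHG12 at 23.75 TPM, SNHG17 at 21.84 TPM, SNHG4 at 17.83 TPM, SNHG19 at 17.79 TPM, SNHG3 at 16.64 TPM, SNHG32 at 16.12 TPM, SNHG11 at 11.78 TPM and SNHG9 at 11.19 TPM. SNHG6 is not among them because parental vehicle 1 was higher, at 126.15 TPM. The same replicate had 3091.04 TPM of B-cell markers and other levels on the 2 strands of the loci described above, and the part of either in these values was not tested. A single library gives no replicate check.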

How the results depend on the processing

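No host gene passed the threshold in the parental, resistant and difference comparisons under any alternative run, and in the comparison of lines leave-one-out gave 0 to 1, the 1 being MIR34AHG without resistant vehicle a (log2 fold change 3.19). That library had the lowest MIR34AHG level of its group, at 3.44 TPM. The gene passed the filter on low values only through the resistant libraries, so this call is no added support. Reversed signs were SNHG14 in the difference of responses (0.5) and MIR497HG in parental decitabine (-1.98), both with replicate 3 included, and GAS5 in parental decitabine without parental decitabine 1 (-0.38) or without parental vehicle 2 (-0.32), within a leave-one-out range for GAS5 of -0.38 to 1.23. The difference for SNHG14 was -0.84 to -0.56 in the alternatives without replicate 3.

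Counts over all features depended more on the processing, and the cause was not tested. Parental decitabine had 151 calls, 35 with no filter, 14 to 264 with 1 library left out (14 without vehicle 1, 23 without vehicle 2, 47 without vehicle 3, 231 without decitabine 1 and 264 without decitabine 2), and 0 of 13778 with replicate 3 included. Resistant decitabine had 308 calls, 73 with no filter, 194 at a mean of at least 5 TPM, 196 with quantile scaling and 90 to 197 with 1 library left out. The lines had 217 calls, 68 with no filter and 58 to 191 with 1 library left out. The difference of responses had 31 calls, 7 with no filter, 1 with replicate 3 included and 12 to 47 with 1 library left out. The same replicate numbers in the parental groups gave no sign of pairing, with correlations of deviations of -0.011 and -0.012, and with the replicate block the parental calls were 0 of all features and 0 host genes. That fit leaves very little to estimate spread from, and parental vehicle 3 has no partner in it. Few calls could be made by it, so no conclusion is drawn from its 0 calls. Parental calls were 112 higher and 39 lower, against 103 and 88 with median-ratio scaling and 75 and 47 with quantile scaling. Resistant calls were 243 and 65, against 216 and 124, and 131 and 65. Calls between lines were 134 and 83, against 85 and 97, and 86 and 98. TPM keep no depth, so what depth limits is unknown, and with 2 or 3 libraries a group a difference missing the threshold is not shown to be absent.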
